A study of Rattus norvegicus with 6 samples.

Results

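Glycogen is the branched glucose store of muscle, liver and other tissues, and 10 genes that build it, cut it or switch between both were followed here in the heart primordium of the rat embryo around the first heartbeat. The members were Ugp2, Gyg1, Gys1, Gbe1, Ppp1r3c, Ppp1r3d, Pygm, Pygb, Pygl and Phka1, and they were found as the probes to which the array gives 1 of these gene names. All 10 genes were found among the 22094 gene names on the array, by 12 of its 30367 probes, since Gys1 and Ppp1r3d had 2 probes each. The name of each of the 10 genes was the same as the current RefSeq symbol of the transcript to which its probe was designed.

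The samples were heart primordia of embryos of the strain labelled Wister rat on embryonic day 10, with 3 arrays in the pre-heartbeat group and 3 arrays in the post-heartbeat group. Both groups were untreated and carried no engineered allele, so that they differed by stage as the labels give it, before or after heartbeat initiation. RNA of whole primordia was labelled with 1 dye and each sample was hybridized to 1 Agilent array. The question addressed was whether genes of glycogen metabolism differ in expression between both stages.

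In glycogen synthesis, UDP-glucose pyrophosphorylase makes the activated glucose donor, glycogenin primes a new particle on itself, glycogen synthase lengthens the chains and the branching enzyme adds the branch points. Breakdown is carried out by glycogen phosphorylase, of which mammals have a muscle, a brain and a liver isozyme, and phosphorylase kinase switches it on. Regulatory subunits of protein phosphatase 1 bind glycogen and bring the phosphatase to these enzymes, where it activates synthase and inactivates phosphorylase. The heart is known to hold large glycogen stores before birth.

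Of the 12 probes, 11 probes of 9 genes were well above background on all 6 arrays and were tested, and the Phka1 probe was not. Values are the log2 signal of a probe less the 75th percentile of its array, so that 0 is the level of that percentile and a difference of 1 is a doubling. A level can be compared between arrays for 1 probe but not between probes. In each group n = 3, and nothing in the labels says whether the samples of a group came from separate litters, so that the p values measure the spread between these samples. The arrays lay on 2 slides, the first with pre-heartbeat sample 1 and post-heartbeat samples 1 and 2, and the other with pre-heartbeat samples 2 and 3 and post-heartbeat sample 3. Since both slides held both groups, each change was computed a second time with slide as a blocking factor.

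Gys1, Gyg1, Ppp1r3c, Ppp1r3d and Pygm had higher signals in the post-heartbeat group, by 1.42-fold to 2-fold, and the lowest post-heartbeat array lay above the highest pre-heartbeat array for each of their 7 probes. Over all tested probes, 5.38% were higher and 6.17% lower without overlap. The members were chosen with earlier results of these data known, so that shares over all tested probes give a scale and not a test of the members. Ugp2, Gbe1, Pygb and Pygl differed by less than the spread between arrays. Of the 11 tested probes, 0 passed an adjusted p of 0.05 in limma, at which 0.124% of all 19299 tested probes were called higher and 0.0207% lower, while 7 had an unadjusted p under 0.05, against 7% of all tested probes. With the slide as a block, 2 of the 11 probes passed, one of Gys1 and one of Ppp1r3c, both higher, against 1.09% of all tested probes called higher and 0.42% called lower. In the selection of the study's methods, which asks for a change of 1.5-fold or more and an unadjusted p under 0.05 in Tukey's HSD test, 6 of the 11 probes passed as higher and 0 as lower, against 1.9% and 1.16% of all tested probes. These 6 probes were those of Gyg1, Ppp1r3c and Pygm, both of Ppp1r3d and 1 of the 2 of Gys1. The count fell when single arrays were left out. It was 2 without pre-heartbeat sample 3, 3 without post-heartbeat sample 2 and 3 without post-heartbeat sample 3. Without post-heartbeat sample 2, a Ppp1r3d probe fell under 1.5-fold, at a log2 difference of 0.54. The 6 probes had log2 differences of 0.64 to 1.01 without pre-heartbeat sample 3 and of 0.66 to 1.06 without post-heartbeat sample 3. These all stayed above 1.5-fold, so that without either sample probes left the selection by their p in Tukey's HSD test. After Benjamini-Hochberg adjustment of that test, the smallest adjusted p among the member probes was 0.254.

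**Figure D1:**
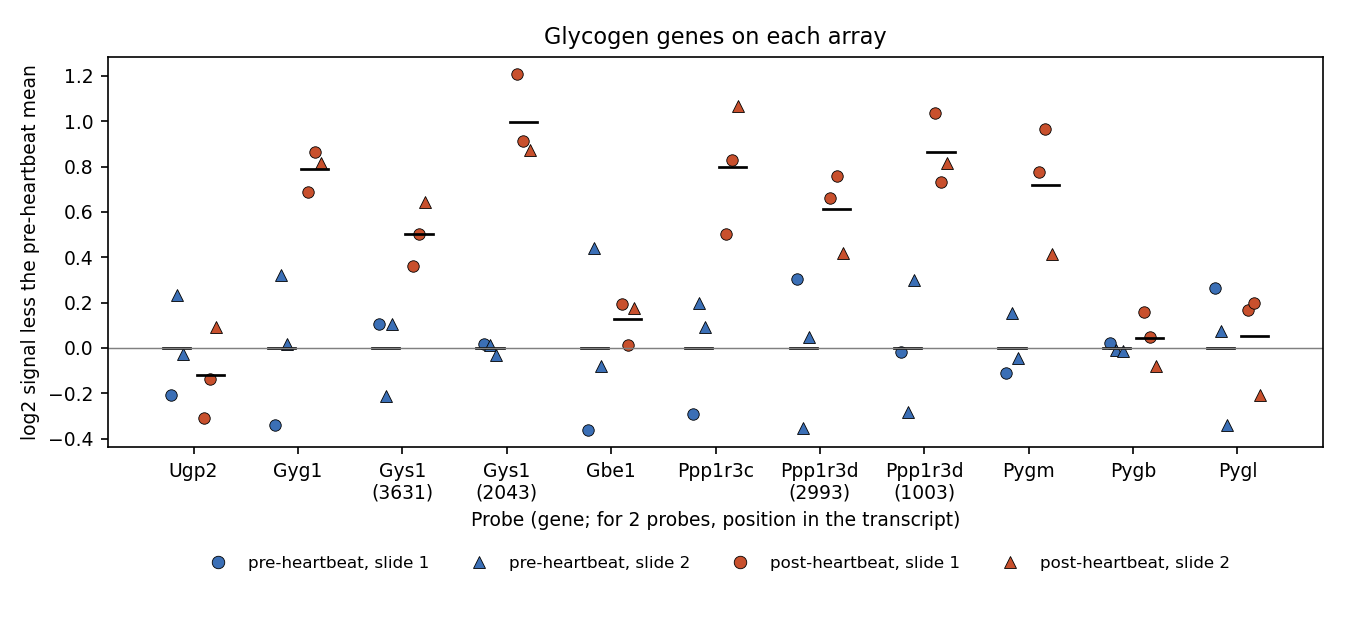
Log2 level of the 11 tested probes on each of the 6 arrays, drawn less the pre-heartbeat mean of the probe (vertical axis). Levels are the log2 signal less the 75th percentile of the array, bars mark the mean of each group, and marker shapes give the slide. The 3 post-heartbeat arrays lie above the 3 pre-heartbeat arrays for Gyg1, Ppp1r3c, Pygm and both probes of Gys1 and of Ppp1r3d. The groups overlap for Ugp2, Gbe1, Pygb and Pygl.

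The probes that carried these differences are shown as they were printed on the array, each written 5′ to 3′, with the first base of its place in the transcript. They are those of the 5 genes whose groups did not overlap, and probes from the far end of a transcript are given by their last 30 bases only. Capitals mark the polyadenylation hexamer AATAAA where it occurs.
Gyg1, from base 655: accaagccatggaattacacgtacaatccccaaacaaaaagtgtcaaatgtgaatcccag
Gys1, from base 2043: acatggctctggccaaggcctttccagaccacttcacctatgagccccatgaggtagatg
Gys1, from base 3631, last 30 bases: tgaaaaaatacagctgtatttaagactgcc
Ppp1r3c, from base 2690, last 30 bases: ctcactttaagAATAAAtgtgcttggtaga
Ppp1r3d, from base 1003: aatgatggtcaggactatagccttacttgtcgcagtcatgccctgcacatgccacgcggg
Ppp1r3d, from base 2993, last 30 bases: caagcctgaatattaaagaacacgtgtgag
Pygm, from base 2256: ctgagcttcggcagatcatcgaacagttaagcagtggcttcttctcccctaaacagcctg
The 2 Gys1 probes thus read places of 1 transcript that are set well apart, as do the 2 Ppp1r3d probes. Chromosome positions were taken from the array's own annotation, which uses the rn4 genome, and whether a probe lies in coding sequence or in a UTR was not analysed here.

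Among the synthesis genes, Gys1 and Gyg1 were higher in the post-heartbeat group. Gys1 encodes the muscle isoform of glycogen synthase. Its probe from base 2043 (rn4 chr1:95926364-95926423, plus strand) had log2 levels of -4.63, -4.63 and -4.68 on the pre-heartbeat arrays and of -3.44, -3.74 and -3.77 on the post-heartbeat arrays. All 3 post-heartbeat arrays were higher than any pre-heartbeat array, by more than the whole range within either group. The pre-heartbeat mean was -4.65 ± 0.028 (SD, n = 3) and the post-heartbeat mean -3.65 ± 0.18 (SD, n = 3), which is a log2 difference of 0.998 with an SE of 0.15, and the limma adjusted p was 0.0801. The blocked difference was 0.96 with an adjusted p of 0.0247 in limma, and within the slides it was 1.04 and 0.88. This probe was dim, with processed signals of 46.1 to 67.9 intensity units before and 106 to 124 after. It had 1 spot per array, while the other member probes had 2, so that its signal was not averaged over spots. With the background modelled by normexp in place of the subtraction made in the scanner software, its log2 difference was 0.51. This was under the 0.79 of Gyg1 in that setting. The normexp setting also adds an offset of 50 intensity units to each signal, which by itself shrinks the log2 difference of a dim probe.

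The other Gys1 probe, from base 3631 (rn4 chr1:95928091-95928150), was bright and moved less. Its log2 levels were 1.88, 1.56 and 1.88 before and 2.13, 2.27 and 2.42 after heartbeat initiation, and these groups did not overlap either. The log2 difference was 0.50 with an SE of 0.16, which is 1.42-fold, and the limma adjusted p was 0.444, or 0.261 with the slide as a block. Both Gys1 probes therefore gave a higher level after heartbeat initiation within both slides, but the size differed between them and the brighter one stayed under 1.5-fold.

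Gyg1 encodes glycogenin, the protein primer of the glycogen particle. Its probe (rn4 chr2:105267812-105267871, minus strand) had log2 levels of 1.61, 2.27 and 1.97 in the pre-heartbeat group and of 2.64, 2.81 and 2.76 in the post-heartbeat group. The post-heartbeat arrays lay close together and all above the pre-heartbeat arrays, which were spread more widely. The log2 difference was 0.79 with an SE of 0.19, which is 1.73-fold, with a limma adjusted p of 0.259. With the slide as a block it was 0.88 with an adjusted p of 0.0519 in limma, just outside the threshold, and within the slides it was 1.11 and 0.64.

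The first and the last step of synthesis did not differ beyond their error. Ugp2, which makes UDP-glucose, had log2 levels of 2.19, 2.63 and 2.37 before and of 2.09, 2.26 and 2.49 after heartbeat initiation. The groups overlapped over most of their range, and the log2 difference was -0.12 with a 95% interval from -0.54 to 0.31 and a limma adjusted p of 0.868. Gbe1, the branching enzyme, had log2 levels of -3.01, -2.21 and -2.73 before and of -2.45, -2.64 and -2.47 after. Its post-heartbeat levels lay inside the range of the pre-heartbeat levels, and the log2 difference was 0.13 with a 95% interval from -0.39 to 0.65 and a limma adjusted p of 0.880. The interval of Ugp2 stops short of the differences seen for Gyg1 and for both probes of Gys1, whereas that of Gbe1 reaches the difference of the brighter Gys1 probe. Whether the change of these genes differed from that of Gys1 was not tested.

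Both regulatory subunits that bring protein phosphatase 1 to glycogen had higher signals in the post-heartbeat group. Ppp1r3c, also called protein targeting to glycogen, had log2 levels of 0.37, 0.86 and 0.75 before and of 1.16, 1.49 and 1.73 after heartbeat initiation (rn4 chr1:240991885-240991944, minus strand). The lowest post-heartbeat array was above the highest pre-heartbeat array, and sample 1 was the lowest in each group. The log2 difference was 0.80 with an SE of 0.21, which is 1.74-fold, and the limma adjusted p was 0.297. With the slide as a block it was 0.94 with an SE of 0.15 and an adjusted p of 0.0275 in limma, and the differences within the slides, 0.96 and 0.92, were nearly equal.

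Ppp1r3d, a more widely expressed subunit of the same family, was read by 2 probes. The probe from base 1003 (rn4 chr3:167507687-167507746, minus strand) had log2 levels of -3.06, -3.33 and -2.74 before and of -2.01, -2.31 and -2.23 after heartbeat initiation. The probe from base 2993 (rn4 chr3:167505698-167505756) had log2 levels of 2.37, 1.71 and 2.11 before and of 2.72, 2.82 and 2.48 after. Both probes separated the groups, although for the second of them the gap between the nearest arrays was small. The log2 difference was 0.86 with an SE of 0.19 for the first, with a limma adjusted p of 0.201, or 0.0919 with the slide as a block. It was 0.61 with an SE of 0.20 for the other, with a limma adjusted p of 0.499, or 0.278 with the block, which also took its change to 0.49 and so under 1.5-fold. Neither probe passed the limma threshold with or without the block.

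Of the 3 phosphorylase isozymes, only the muscle isozyme was separated between the groups. Pygm encodes muscle glycogen phosphorylase, and its probe (rn4 chr1:209180740-209180799, plus strand) had log2 levels of -2.92, -2.65 and -2.85 before and of -2.03, -1.84 and -2.39 after heartbeat initiation. All post-heartbeat arrays were higher than the pre-heartbeat arrays, with post-heartbeat sample 3 the nearest to them. The log2 difference was 0.72 with an SE of 0.18, which is 1.65-fold, with a limma adjusted p of 0.285, or 0.156 with the slide as a block. It was 0.98 within the first slide and 0.36 within the other, where the post-heartbeat group is sample 3 alone.

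Pygb, the brain isozyme, gave the most even levels of all members, at -0.20, -0.23 and -0.23 before and -0.06, -0.17 and -0.30 after heartbeat initiation on the log2 scale. The groups overlapped, and the log2 difference of 0.04 had a 95% interval from -0.27 to 0.36 and a limma adjusted p of 0.934. Pygl, the liver isozyme, had log2 levels of -1.09, -1.27 and -1.69 before and of -1.18, -1.15 and -1.56 after. The groups overlapped as well, and in both of them sample 3, which lay on the second slide, was the lowest. Its log2 difference of 0.05 had a 95% interval from -0.43 to 0.54 and a limma adjusted p of 0.948. The end of the Pygl probe (rn4 chr6:92298341-92298400), with the polyadenylation hexamer in capitals, is shown as the letters that were read for an isozyme whose level was not seen to differ.
Pygl, from base 2650, last 30 bases: ctaaaAATAAAatgtcaacttcgagttgtc

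**Figure D2:**
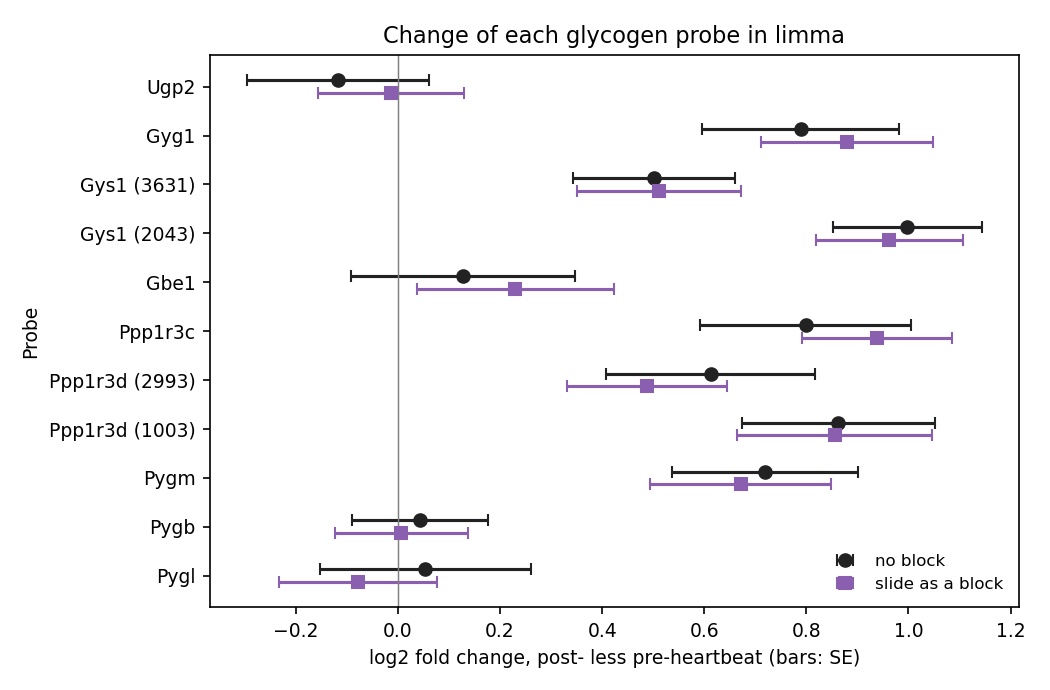
Log2 difference of the post-heartbeat group less the pre-heartbeat group (horizontal axis) for the 11 tested probes, with bars for the SE in limma, without a block (circles) and with the slide as a block (squares); numbers in brackets are the first base of the probe in the transcript. The 7 probes of Gyg1, Gys1, Ppp1r3c, Ppp1r3d and Pygm lie between 0.49 and 0.998 in both fits, and those of Ugp2, Gbe1, Pygb and Pygl lie between -0.12 and 0.23.

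Since isozymes of 1 enzyme may change unequally, the log2 difference between the probes of a pair was taken within each array and compared between the groups by a two-sided exact permutation test over 4 pairs, in which 3 arrays against 3 cannot give a p below 0.1. Pygm less Pygb was -2.72, -2.42 and -2.61 before and -1.97, -1.66 and -2.09 after heartbeat initiation. The groups did not overlap, and the change of 0.68 had an exact p of 0.1, the smallest possible, and an adjusted p of 0.2. Pygm less Pygl was -1.83, -1.37 and -1.16 before and -0.85, -0.69 and -0.83 after. These groups did not overlap either, with a change of 0.67, an exact p of 0.1 and an adjusted p of 0.2. With the slide taken into account both changes had the same direction, at 0.66 and 0.75. By contrast, Pygb less Pygl changed by -0.01 with an exact p of 1, and Ppp1r3c less Ppp1r3d, over the brighter Ppp1r3d probe, changed by 0.19 with an exact p of 0.7, and in both pairs the groups overlapped. A ratio within an array shows unequal change of a pair, not which member of it changed.

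**Figure D3:**
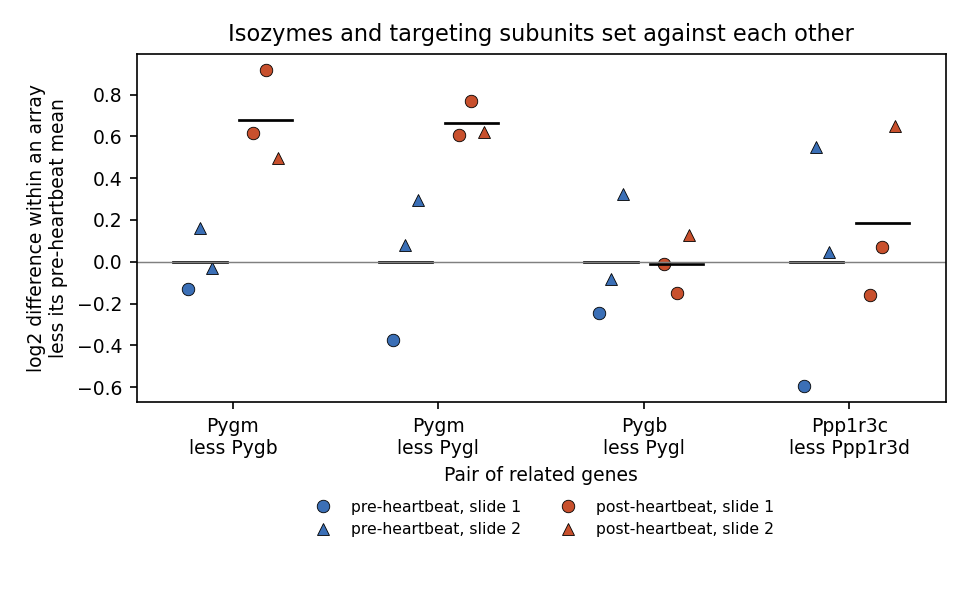
Log2 difference between the probes of 2 isozymes on the same array, for 4 pairs on each of the 6 arrays. The difference is drawn less the pre-heartbeat mean of the pair (vertical axis), with a bar for the mean of each group. The post-heartbeat arrays lie above the pre-heartbeat arrays for Pygm less Pygb and Pygm less Pygl, and the groups overlap for Pygb less Pygl and Ppp1r3c less Ppp1r3d.

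Phka1 encodes the muscle form of the alpha subunit of phosphorylase kinase, which switches phosphorylase on. Its probe was well above background on 1 of 3 arrays in each group, with processed signals of 9.08 to 23.4 intensity units, and it was not tested. No fold is given, since the probe was at the limit of measurement in both groups.

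The slides differed for many probes of the array. A difference between the slides at an adjusted p under 0.05 in limma was found for 16.1% of all tested probes and for 0 of the 11 member probes, for which the smallest adjusted p of the slide difference was 0.0898, in Ppp1r3c. Within both slides 7 of the 11 probes were higher in the post-heartbeat group and 2 were lower, against 24.7% and 25.4% of all tested probes. The 2 lower ones were those of Ugp2 and Pygl, at -0.01 to -0.08 on the log2 scale within a slide. The median log2 difference of the 11 probes was 0.61, or 0.51 with the slide as a block, beside -0.03 and -0.02 over all tested probes, and 10 of the 11 were above 0, against 44.7% of all tested probes. By gene, over the brightest tested probe of each, the median was 0.50 and 8 of 9 were above 0. Since the members were chosen with earlier results of these data known, these contrasts are descriptions and no test of the members. The groups did not overlap for 7 of the 11 probes, all higher, where 5.38% of all tested probes were higher and 6.17% lower without overlap.

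Around these members, 41 further genes of glycogen metabolism and its control were listed, of which 37 were on the array by name and 31 were tested, each by its brightest probe. Of these 31 genes, 18 were above and 13 below 0, with a median log2 difference of 0.06, and 0 passed the limma threshold. Without adjustment 4 had a limma p under 0.05, and with the slide as a block 1 gene passed, as higher. In the selection of the methods 2 genes passed as higher and 0 as lower, or 1 and 0 among genes well above background on all 6 arrays, and 4 and 0 with the slide as a block, with which 5 of the 11 member probes and 1.94% of all tested probes passed as higher. The shares were thus lower than among the member probes and nearer to those of all tested probes, but the members were chosen with results of these arrays known, and the difference was not tested.

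The gene that passed with the block was Prkag2, a regulatory subunit of AMP-activated protein kinase, which senses the energy state of the cell through the nucleotides that these subunits bind. Its log2 levels were -2.01, -1.72 and -1.84 before and -1.22, -0.98 and -0.88 after heartbeat initiation. The groups did not overlap, and the log2 difference was 0.83 with an SE of 0.16 and a limma adjusted p of 0.142, or 0.90 and 0.0267 with the slide as a block. Prkaa2, a catalytic subunit of the same kinase, had a log2 difference of 0.45 with an SE of 0.24, or 0.61 with the block, with which it passed the selection but not the limma threshold. Prkaa1, the other catalytic subunit, was at -0.44 with an SE of 0.27 and overlapping groups, and whether both catalytic subunits differed from each other was not tested.

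Of the other targeting subunits of protein phosphatase 1, Ppp1r3a and Ppp1r3b were tested, while Ppp1r3e was not well above background on any array. Ppp1r3b, best known from liver, had log2 levels of -6.41, -6.31 and -6.80 before and -5.82, -5.65 and -5.82 after heartbeat initiation. It was well above background on only 1 of the 3 pre-heartbeat arrays and entered the tests through the post-heartbeat group, so that its place in the selection is no support for a difference, and its limma adjusted p was 0.236. Ppp1r3a, the subunit of striated muscle, had overlapping groups and a log2 difference of 0.63 with an SE of 0.31 and a limma adjusted p of 0.826. With the slide as a block its difference was 0.84 with an SE of 0.22 and an adjusted p of 0.146 in limma. It was 0.90 and 0.78 within the slides, and Ppp1r3a did not pass the selection in either fit. Ppp1r1a, an inhibitor of the same phosphatase, was lower on all 3 post-heartbeat arrays, where its mean was 3.32 ± 0.08 (SD, n = 3) against 3.68 ± 0.05 (SD, n = 3) earlier, and its limma adjusted p was 0.569.

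Pgm1, phosphoglucomutase, which interconverts the glucose phosphates on the way into and out of glycogen, had log2 levels of -0.92, -0.52 and -0.77 before and -0.29, -0.23 and -0.13 after heartbeat initiation. The groups did not overlap, and the log2 difference was 0.52, or 0.59 with the slide as a block, with which Pgm1 passed the selection but had a limma adjusted p of 0.111. Phkb, the beta subunit of phosphorylase kinase, had a log2 difference of -0.46 with an SE of 0.24 and a limma adjusted p of 0.857, or -0.31 with the slide as a block. Its difference was -0.61 within the first slide and -0.01 within the other. Gys2, the liver isoform of glycogen synthase, had a log2 difference of 0.19 with overlapping groups.

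**Figure D4:**
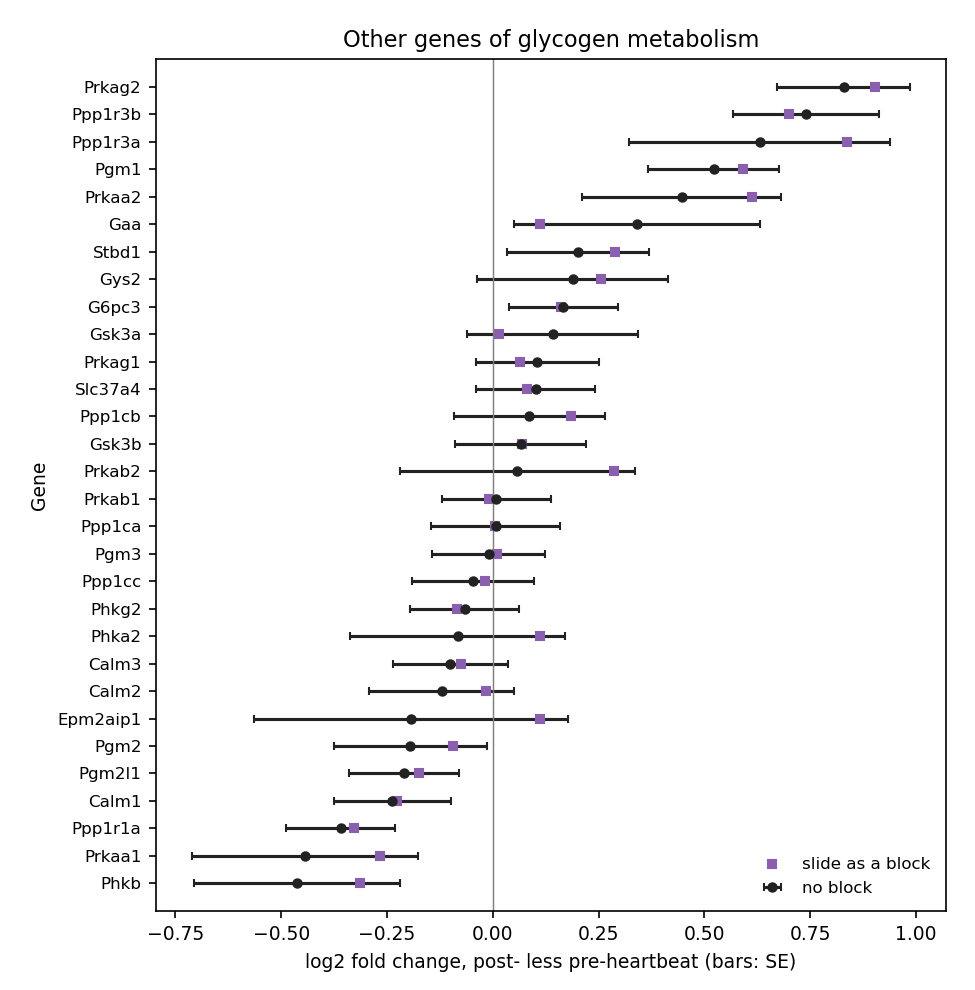
Log2 difference of the post-heartbeat group less the pre-heartbeat group (horizontal axis) for 30 of the 31 tested genes of glycogen metabolism outside the 10 members, without a block (circles, with bars for the SE in limma) and with the slide as a block (squares). Prkag2 lies highest in both fits, at 0.83 and 0.90, and at the low end Phkb lies at -0.46 without and -0.31 with the block, where Ppp1r1a is lowest at -0.33.

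The tissue label was checked against marker genes, as signals summed over a list in multiples of the 75th percentile of the array. All 10 cardiac muscle genes and all 6 cardiac regulators were well above background on every array, and the cardiac muscle sum was 361 to 617 before and 665 to 813 after heartbeat initiation, so that it was higher in the group in which the 5 members were higher. With the slide as a block, 4 of the 10 cardiac muscle genes passed the limma threshold, all higher, and 2 neural ectoderm genes, Otx2 and Lmx1a, passed as lower. Lmx1a was well above background on only 1 of the 3 post-heartbeat arrays and entered the tests through the pre-heartbeat group. Its call is therefore no support for a difference, and without the block its limma adjusted p was 0.115. Other tissues were present as well, since all 8 yolk sac endoderm genes were well above background, with a sum of 50.8 to 53.9 before and 32.2 to 43.0 after. The brightest of them by far was Ttr, whose mean log2 level was 5.28 before and 4.70 after. Without the block 6 of the 8 genes were lower and 2 higher, Afp by 0.24 and Amn by 0.03 on the log2 scale, and none passed the limma threshold. The neural ectoderm sum was 6.56 to 7.73 before and 2.58 to 3.18 after, and most of it was Otx2, whose mean log2 level was 2.64 before and 1.08 after (limma adjusted p of 0.0201). Sox2 and Pou3f1 differed by -0.21 and 0.22 on the log2 scale and did not pass. The endothelial sum was 15.4 to 16.5 before and 10.6 to 12.4 after. It was mostly Kdr, whose mean log2 level was 3.77 before and 3.22 after. Without the block all 5 endothelial genes were lower, but with it Pecam1 and Cdh5 were at 0.06 and 0.10. The paraxial mesoderm sum was 21.4 to 23.8 before and 25.0 to 26.2 after. It was nearly all Tcf15 and Pax3, the only 2 of its 5 genes well above background on every array. No gene of either list passed the limma threshold with or without the block. The erythroid sum was 0.645 to 1.48 before and 1.68 to 1.91 after and was mostly Hbb, with a log2 difference of 1.22, while Alas2 was at -0.61 and Klf1 at -0.25, none of which passed, and Gata1 was not well above background. The definitive endoderm sum was 1.12 to 1.36 before and 1.0 to 1.16 after, with Shh not well above background. The part of these shifts in the differences of Gys1, Gyg1, Ppp1r3c, Ppp1r3d and Pygm was not tested. In RNA of whole primordia, a higher share of cells of a type and more RNA per cell cannot be told apart.

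The 3 genes found to go most closely with Gys1 were Lmod1, Fam83d and Ddah1. Genes in the lists used here, and names that are locus or accession numbers, were left out of this search. Each of the 3 had a Pearson's r of 0.989 with the Gys1 probe from base 2043 over the 6 arrays. These arrays fall into 2 groups that differ for Gys1, which raises r for any probe that is higher in the same group. Of the 19198 tested probes of genes in none of the lists used here, 77 had an r over 0.95.

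The promoters of the members were read from RefSeq on the GRCr8 genome, from 250 bases before to 50 bases after the start site, because several members were higher together. The motif searched was the core of the binding site of hypoxia-inducible factor 1, ACGTG or GCGTG on either strand, of which ACGTG overlaps the E-box CACGTG. It was found in 10 of the 10 members and in 41.6% of all 33469 promoters, or in 60.5% of the 9065 promoters of genes with a tested probe. Members that were not seen to differ, such as Ugp2, Gbe1, Pygb and Pygl, held it too. The median GC content was 66.2% in the promoters of the members, 60.7% in those of genes with a tested probe and 51.7% in all promoters. The part of GC content in the share that held the motif was not tested. Ppp1r3c had the most matches, 8, of which 4 were ACGTG, while Pygm had 2 and Gys1 had 1. A CACGTG was counted on each strand, as for Ppp1r3c at bases -54 and -53. Another match of Ppp1r3c, a GCGTG at base 31, lay after the start site and so outside the bases shown. A match is a description of the letters and not a site at which binding was measured.
The 250 bases before the start site are shown for the targeting subunit with the most matches and for the muscle isoforms of synthase and phosphorylase, on the strand of the gene with the motif in capitals, also where it reads CACGT or CACGC from the other strand.
Ppp1r3c, GRCr8 chr1:243878528-243878777, minus strand: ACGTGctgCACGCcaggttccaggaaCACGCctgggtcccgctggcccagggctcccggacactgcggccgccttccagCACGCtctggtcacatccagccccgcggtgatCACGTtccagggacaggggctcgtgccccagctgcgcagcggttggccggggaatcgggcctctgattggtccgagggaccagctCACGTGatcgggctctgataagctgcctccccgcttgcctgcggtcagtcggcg
Gys1, GRCr8 chr1:105051666-105051915, plus strand: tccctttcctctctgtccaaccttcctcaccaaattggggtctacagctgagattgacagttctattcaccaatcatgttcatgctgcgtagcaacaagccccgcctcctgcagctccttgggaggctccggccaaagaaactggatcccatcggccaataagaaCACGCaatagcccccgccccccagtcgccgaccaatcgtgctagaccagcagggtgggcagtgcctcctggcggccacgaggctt
Pygm, GRCr8 chr1:213119555-213119804, plus strand: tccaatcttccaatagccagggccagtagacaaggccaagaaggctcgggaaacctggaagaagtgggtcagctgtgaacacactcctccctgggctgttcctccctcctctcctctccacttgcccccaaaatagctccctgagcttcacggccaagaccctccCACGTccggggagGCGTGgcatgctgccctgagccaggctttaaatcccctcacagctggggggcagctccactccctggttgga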

How the data were processed

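RNA of rat heart primordia from 3 pre-heartbeat and 3 post-heartbeat samples was labelled from 10 ng and hybridized to 1-color Agilent arrays. The authors deposited the output of Feature Extraction 10.7.3.1, in which the processed signal of a spot is an intensity after background subtraction, not normalized between arrays, and a table of linear ratios scaled to the 75th percentile of each array and divided by a baseline value of the probe. The ratios were used as an alternative only.

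Control and outlier spots were left out, and log2 signals less the 75th percentile of the array were averaged over the spots of a probe. That percentile was between 1142.82 and 1694.14 intensity units and 0 spots were saturated. The number of arrays limits the precision. Tests were run on the 19299 probes for which every array of 1 group or of both (3 arrays each) was flagged well above background. Groups were compared with limma 3.58.1 in R 4.3.3 (with data.table, version 1.17.8) with Benjamini-Hochberg adjustment over all tested probes at 0.05.

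The selection of the methods was a change of 1.5-fold and an unadjusted p under 0.05 in Tukey's HSD test, which with 2 groups is a pooled two-group comparison. Slide was taken from the array barcode. Every member probe is named. Other glycogen genes are named if they passed a test with or without the slide block or were among the 3 with the largest difference in each direction, and Gys2 was added after its values were seen. The values of 1 other glycogen gene, which is in the counts, are not reported here. The members and gene lists were chosen with earlier results of these data known. Alternatives were another background correction, normalization, percentile, probe filter, test and variance model, the authors' ratios, blocks, and leaving out each array.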

Additional observations from a re-analysis of the deposited data

How the results depend on the processing

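The precision was limited by 3 arrays per group. For the dimmer probes the normexp setting moved the value. With it the log2 difference was 0.51 for Gys1 from base 2043, 0.61 for Ppp1r3d from base 1003 and 0.56 for Pygm. That setting includes an offset of 50 intensity units, which by itself shrinks the log2 differences of dim probes. The parts of the offset and of the background model in these values were not tested. Over all tested probes, the 24 limma calls higher and 4 lower became 211 and 81 with the slide as a block, 110 and 56 with a replicate block, 38 and 7 with an intensity trend, 1 and 0 without a filter on dim probes, and 0 and 0 with the methods' test after adjustment. The calls higher were 43 with normexp, 11 with quantile normalization and 10 with the authors' ratios, and leaving out 1 array gave 0 to 1 higher and 0 to 1 lower. The cause of these shifts was not tested.

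Among the member probes, the 0 limma calls became 2 with the slide as a block, and stayed at 0 under the other alternatives run. The 6 selected member probes became 0 at a threshold of 2-fold and 2 to 5 without 1 array, with 2 without pre-heartbeat sample 3, 3 without post-heartbeat sample 2 and 3 without post-heartbeat sample 3. Among the other glycogen genes, the 0 limma calls became 1 with the slide as a block, and the 2 selected as higher became 4 with the slide as a block, 1 with normexp, 1 with a filter on all 6 arrays and 0 at 2-fold, while the 0 selected as lower became 0 to 1 without 1 array, with 1 without post-heartbeat sample 3.

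The 7 probes of Gyg1, Gys1, Ppp1r3c, Ppp1r3d and Pygm kept their direction under the 12 alternatives run for each, with log2 differences of 0.40 at the lowest and 1.06 at the highest. Differences near 0 changed sign. That of Gbe1 was -0.052 to 0.35 without 1 array, that of Pygb -0.016 to 0.10, and that of Pygl -0.12 to 0.19 and -0.077 with the slide as a block. Pygb less Pygl was 0.084 with the slide as a block, 0.021 with quantile normalization and -0.13 to 0.15 without 1 array, and Ppp1r3c less Ppp1r3d was -0.11 to 0.46 without 1 array.

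Samples with the same replicate number did not all deviate together, with correlations of 0.65, -0.28 and 0.49. Across all pairs of a pre- and a post-heartbeat sample, the sign went with the slide. It was positive for every pair on the same slide, at 0.49 to 0.65, and negative for every pair on different slides, at -0.28 to -0.73. The numbers were therefore not taken as pairs. With the replicate block 5 member probes and 3 other glycogen genes were selected, all higher, and 0 passed the limma threshold.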
